A study of Mus musculus with 11 samples.

Results

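Transcripts of the BCL2 family, which decides between survival and death of a cell, were followed by bulk RNA sequencing in flow-sorted mouse ST-HSCs, the blood stem cells that repopulate marrow for a short term. The members were the 10 genes of the deposited count table whose Ensembl identifiers carry the symbols of the main survival, effector and BH3-only genes of the family. All 10 were found among the 53700 genes of the table, and all 10 passed the filter on low counts that kept 16639 genes. They comprise 5 survival genes (Bcl2, Mcl1, Bcl2l1, Bcl2a1b and Bcl2a1d), 2 effector genes (Bax and Bak1) and 3 BH3-only genes (Bcl2l11, Bid and Bbc3). The 11 libraries fall into 4 groups. KO treated hosts (3 libraries: 257, 263 and 276) were titled Cre_pos, labelled CXCL12 KO and given cytarabine, doxorubicin and quizartinib. WT treated hosts (3 libraries: 252, 262 and 266) were titled Cre_neg, labelled CXCL12 WT and given the same agents. KO vehicle hosts (2 libraries: 249 and 275) and WT vehicle hosts (3 libraries: 240, 253 and 265) had the same genotype labels and received vehicle. All hosts, labelled C57BL/6j, carried a transplanted acute myeloid leukaemia with Flt3-ITD, an activating mutation of the FLT3 receptor, and without TET2. Cytarabine and doxorubicin damage DNA or block its copying, and quizartinib inhibits the FLT3 kinase. The sources used here give neither the promoter that drives Cre, nor the age of the hosts, nor whether the sorted cells came from the graft or the host, nor whether each library came from a separate animal. P-values therefore measure only the spread between these libraries.

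The BCL2 family controls the mitochondrial route to apoptosis. The effectors BAX and BAK permeabilise the outer mitochondrial membrane and release cytochrome c, the survival proteins BCL-2, MCL-1, BCL-XL and A1 hold them in check, and BH3-only proteins such as BIM, BID and PUMA neutralise the survival proteins or activate the effectors. In mice, blood stem cells depend on MCL-1, maturing red-cell precursors depend on BCL-XL, and A1 is made mainly in neutrophils, mast cells and activated lymphocytes. FLT3-ITD signals through STAT5 among others, and DNA damage acts on the family largely through p53. Transcript counts measure neither the proteins nor their binding, and the counts merge splice forms such as the long and short forms of Bcl2l1.

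Gene counts ran from 8129032 to 31061919 per library, and every treated library was deeper than every vehicle library. Reads outside annotated genes took 5.98% to 30.4% of each library and were highest in KO treated 257, at 30.4%. The targeted gene could not be checked in these cells, since the series places the deletion in the marrow environment: Cxcl12 was at 1.20 to 4.63 CPM (counts scaled to a common library size with TMM factors) in KO treated and 0.826 to 1.59 CPM in WT treated libraries. It was at 0 and 5.36 CPM in KO vehicle libraries and 0 to 14.4 CPM in WT vehicle libraries. Tet2, the gene deleted in the leukaemia, had 65 to 856 counts in every library (2.99 to 28.7 CPM), and counts per gene do not show whether they cover the deleted part. Of 12 stem and progenitor markers, 8 to 12 reached 1 CPM in each library, with a summed level of 556 (WT vehicle 253) to 1748 CPM (WT treated 262). Slamf1 was at 0 in KO treated 257 and in all 3 WT vehicle libraries. All 12 neutrophil markers had counts in all 11 libraries, with a summed level of 7109 to 131132 CPM, so transcripts of maturing myeloid cells were present in these sorts. In bulk libraries, fewer cells of a type and less RNA per cell cannot be told apart.

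Mcl1 had the highest level per length of transcript of the 10 members in 7 of 11 libraries (Bax in 3 and Bcl2a1d in 1), and the BH3-only gene Bcl2l11 and the A1 copy Bcl2a1b were among the lowest. On the scale of CPM per kilobase of exon, the median level over the 11 libraries was 48.2 for Mcl1, 28.2 for Bid, 21.3 for Bax, 10.2 for Bcl2a1d and 9.37 for Bcl2. It was 6.00 for Bcl2l1, 2.89 for Bbc3 (the PUMA gene), 2.88 for Bak1, 1.63 for Bcl2l11 (the BIM gene) and 0.999 for Bcl2a1b. The ranges of neighbours in this order overlapped for every pair: Mcl1 ran from 26.8 to 68.5 and Bid from 17.1 to 36.7, for example. The members differed widely in how much they varied. The highest library was 2.15 times the lowest for Bid, 2.48 times for Bcl2 and 2.56 times for Mcl1, against 20.8 times for Bcl2l1, 33.7 times for Bcl2a1d and 47.4 times for Bcl2l11. The last of these rests on WT vehicle 265, the shallowest library, in which Bcl2l11 had 6 counts.

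**Figure D1:**
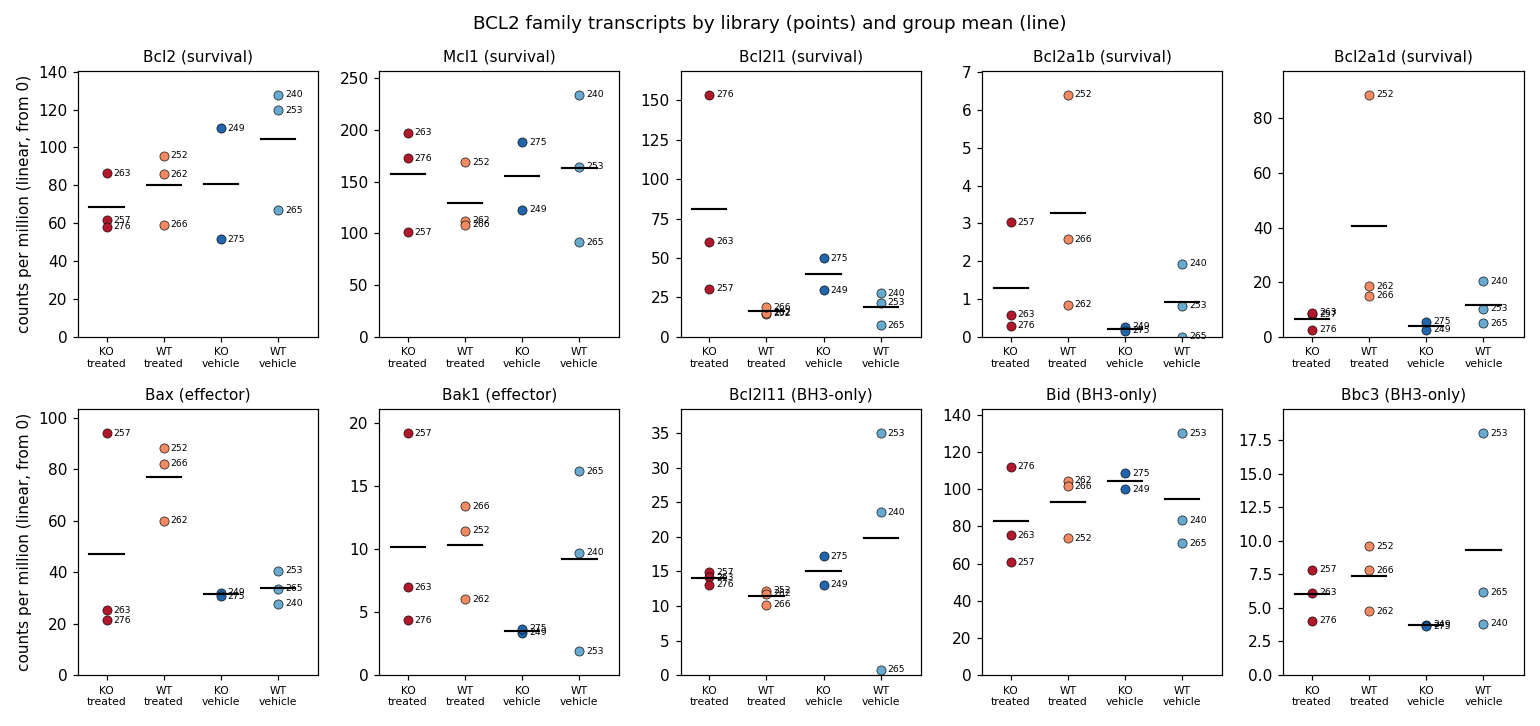
Level of each member in CPM (linear axis from 0) in every library, with the group mean as a line and library numbers beside the points. The 3 KO treated libraries hold 30.5 to 153.5 of Bcl2l1, against 14.7 to 18.6 in the 3 WT treated ones, while Bcl2, Mcl1 and Bid overlap between all groups.

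The series asks how deletion of CXCL12 in the marrow environment bears on the response of leukaemic stem cells to therapy, so the KO against WT niche in treated hosts is given first. Bcl2l1, which encodes BCL-XL, was at 30.5, 60.3 and 153.5 CPM in KO treated libraries 257, 263 and 276, against 14.7, 15.4 and 18.6 CPM in WT treated libraries 252, 262 and 266. Every KO treated library lay above every WT treated library, and the KO libraries themselves differed widely, with 276 far above the others. The fitted log2 fold change was 2.33 ± 0.62 (SE), or 5.02-fold higher with the KO niche. edgeR's quasi-likelihood test gave an unadjusted p of 0.00284 and a Benjamini-Hochberg adjusted p of 0.383 over all genes, so the difference did not pass. Without library 276, the value was 1.42 with an adjusted p of 1, and without library 257 it was 2.72 with an adjusted p of 0.0179. DESeq2 and limma voom with quality weights called the gene (adjusted p = 0.0164 and 0.00254), as did edgeR without the filter on low counts (adjusted p = 0.0306).

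In vehicle hosts Bcl2l1 did not pass the test. It was at 29.5 and 49.97 CPM in KO vehicle libraries 249 and 275, against 27.5, 21.6 and 7.38 CPM in WT vehicle libraries 240, 253 and 265. The groups did not overlap, although 249 lay only just above 240. The fitted value was 1.07 ± 0.65 on the log2 scale with an edgeR adjusted p of 0.783. It was 0.31 with each library's percentage of reads outside genes in the model (adjusted p = 0.987), and 0.68 without KO vehicle 275. Averaged over both treatments it was 1.70 ± 0.44 (unadjusted p = 0.00255, adjusted p = 0.269). Bcl2l1 was the 1 member of 10 above the WT libraries in both comparisons; of all 16639 genes, 1.82% were. No member was below the WT libraries in both, against 0.589% of genes. The interaction of niche and treatment for Bcl2l1 was 1.25 ± 0.89 on the log2 scale (adjusted p = 0.806), and 0.33 without KO treated 276, so the niche differences in treated and vehicle hosts were not shown to differ.

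Red-cell transcripts differed in the same direction as Bcl2l1. Between the treated niches the log2 fold change was positive for all 14 erythroid markers, with a median of 7.22, and their summed level was 47010.5, 22493 and 109119 CPM in KO treated libraries 257, 263 and 276. It was 619, 258 and 650.5 CPM in WT treated libraries 252, 262 and 266. In vehicle hosts the sum was 350 and 17595 CPM in KO libraries 249 and 275, and 1124, 63.7 and 140 CPM in WT libraries 240, 253 and 265. There too the log2 fold change was positive for all 14 markers, with a median of 4.41, and 12 of them had an unadjusted p under 0.05, as did all 14 in treated hosts. None of the 14 passed edgeR's adjusted test in either comparison. Globin genes make up most of the sum, and the sum of KO vehicle 249, 350 CPM, lay within the WT range. Even so, all 14 markers reached 1 CPM in 249, against 6 to 10 in WT libraries, and 6 of the 14 were above every WT library there. One of them was Rhag, of the red-cell Rh complex, at 22.6 CPM in 249, against at most 4.02 CPM in WT libraries. Bcl2l1 was highest in 276, where the red-cell sum was also highest, and libraries 263 and 257 stand in opposite order on these scales. Sptb and Epb42, genes of the red-cell membrane skeleton, were at 0 in WT treated 266, and Sptb also in WT vehicle 253. No erythroid marker was at 0 in any KO library. The genes whose z-scored log2 CPM over the 11 libraries lay closest to Bcl2l1 were Isca1, of iron-sulphur cluster assembly, Slc4a1, the band 3 chloride and bicarbonate exchanger of red cells, and Herc1, a ubiquitin ligase, with root mean square differences of 0.30, 0.32 and 0.34. KO vehicle 275 also stood apart in other cell types: its summed level of 8 megakaryocyte and platelet markers was 683 CPM, against 24.4 to 71.5 CPM in the other 10 libraries, and its 8 stromal and endothelial markers summed to 130 CPM, against 23.5 to 85.3 CPM. The 7 megakaryocyte markers tested all had a positive log2 fold change between the vehicle niches, with a median of 2.09, and none passed the adjusted test. Gp6 was at 0 in 9 of the 11 libraries but not in 275. What part red-cell or other transcripts had in the Bcl2l1 difference was not tested.

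**Figure D2:**
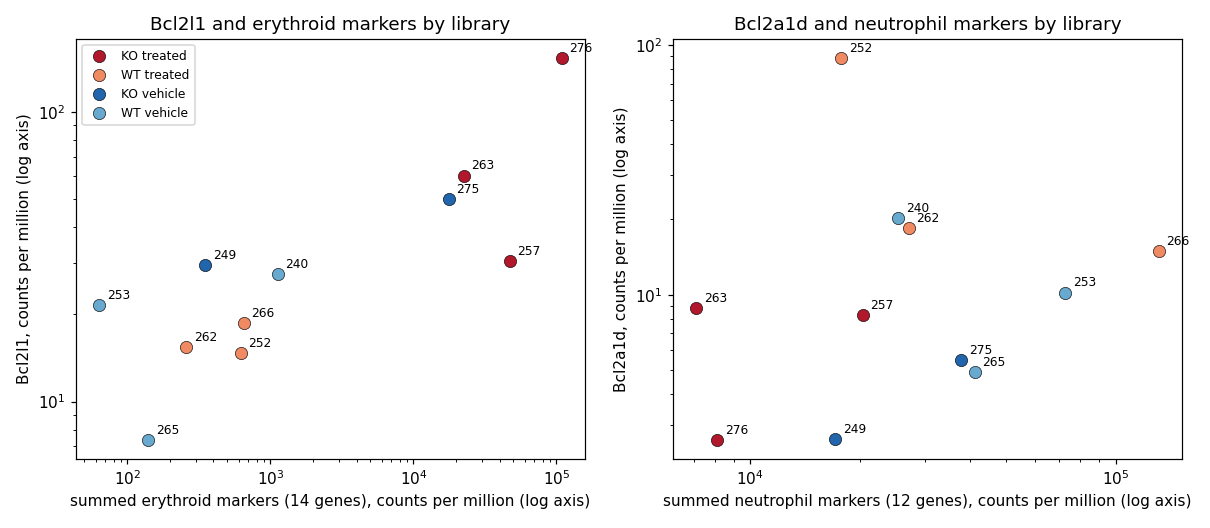
Each point is a library, with summed marker level on the horizontal and the member's level on the vertical log axis, both in CPM. KO treated 276 has the highest Bcl2l1 (153.5) and red-cell sum (109119), and WT treated 252 has the highest Bcl2a1d (88.6) with a neutrophil sum of 17736, the lowest of its group.

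A start region of Bcl2l1 is shown because red-cell factors of the GATA family and STAT5 are known regulators of this gene. RefSeq (GRCm38.p6) gives 3 starts, and the 250 bases before each were searched on both strands for the GATA motif in the form AGATAA, the form TGATAA, the form AGATAG or the form TGATAG, and for TTCNNNGAA, a STAT motif. None of these motifs overlapped another in the windows printed. The start that lies farthest downstream held AGATAA, in capitals below, 41 bases before the start. A GATA form was not particular to Bcl2l1 among the members. The window of Bid, the member that varied least, held TGATAG on the other strand, 42 bases before its start. A GATA form is present in 26.5% of 32851 mouse promoter windows of this length, and AGATAA in 9.99%. These shares are per single window. For Bcl2l1 3 windows were searched and the others held no GATA form, so a hit in any of them is more likely than these shares. TTCNNNGAA, present in 7.02% of windows, was in none of the 3 windows.
Bcl2l1, chr2:152828490-152828739, minus strand: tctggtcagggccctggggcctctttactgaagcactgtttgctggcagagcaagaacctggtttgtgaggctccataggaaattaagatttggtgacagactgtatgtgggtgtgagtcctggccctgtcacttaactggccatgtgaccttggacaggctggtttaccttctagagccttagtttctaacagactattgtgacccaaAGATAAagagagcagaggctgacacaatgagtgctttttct

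Bcl2a1d, a copy of the A1 gene, had the opposite sign, and no A1 copy passed edgeR's adjusted test. It was at 8.27, 8.84 and 2.63 CPM in KO treated libraries 257, 263 and 276, against 88.6, 18.5 and 15.0 CPM in WT treated libraries 252, 262 and 266. The groups did not overlap, and WT treated 252 stood far above the rest. The fold change was -2.63 ± 0.84 on the log2 scale (unadjusted p = 0.00924, edgeR adjusted p = 0.406), and -1.35 without library 252 (adjusted p = 0.735). DESeq2 called the gene (adjusted p = 0.0384), and limma voom did not (adjusted p = 0.0744). In vehicle hosts Bcl2a1d was at 2.64 and 5.48 CPM in KO libraries 249 and 275, and at 20.3, 10.2 and 4.92 CPM in WT libraries 240, 253 and 265, which overlap. KO over WT there was -1.54 ± 0.94 on the log2 scale (adjusted p = 0.786), or -0.90 without WT vehicle 240, and the average over both treatments was -2.08 ± 0.64 (adjusted p = 0.350). The interaction was -1.09 ± 1.19 (adjusted p = 0.887) and turned to 0.20 without WT treated 252.

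Bcl2a1b had few counts. It had 66, 20 and 8 counts in KO treated libraries 257, 263 and 276 and 207, 21 and 50 counts in WT treated libraries 252, 262 and 266. The groups overlap, and the log2 fold change of -1.33 ± 1.43 did not pass (adjusted p = 0.814) and was -0.40 without WT treated 252 and -2.88 without KO treated 257. It was the 1 member with a library at 0, WT vehicle 265, where 3 counts, the floor that a count of 0 allows, would be 0.369 CPM. Bcl2a1a, a copy outside the member list, was at 7.76, 8.90 and 3.22 CPM in the KO treated and 98.1, 14.4 and 20.7 CPM in the WT treated libraries. Its groups did not overlap either, with a log2 fold change of -2.74 ± 1.26 (adjusted p = 0.471). Bcl2a1c had 17 counts in all 11 libraries together.

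Reads cannot be divided cleanly among these copies. Of the 50-base stretches of GENCODE M21 transcripts, 20.5% were unique to Bcl2a1d, 20.8% to Bcl2a1b and 31.0% to Bcl2a1a, and 45.3%, 43.2% and 56.5% of the 100-base stretches. Every 50-base stretch of Mcl1, Bcl2l1 and Bbc3 was unique, as were 82.9% to 99.9% of those of the other 5 members. The length of the reads is not given in the sources used here, and reads that matched several places were left uncounted. The level of each single copy is therefore uncertain. With the 4 copies summed into 1 gene, the KO against WT log2 fold change in treated hosts was -2.61 ± 0.83 (adjusted p = 0.406).

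The regions before the 3 expressed copies are shown because the copies are near-identical here too. Aligned, the windows of Bcl2a1d and Bcl2a1b matched at 198 of 200 bases, those of Bcl2a1a and Bcl2a1b at 205 of 206, and those of Bcl2a1d and Bcl2a1a at 238 of 244. Capitals mark GAGGAAGT, a form of the PU.1 motif, which all 3 windows held and 2.44% of the 32851 windows hold, and in Bcl2a1a also a GATA form read on the other strand. As the 3 windows are near-identical, the motif in them is not 3 separate observations. The window of Bak1, an effector gene, also held GAGGAAGT, 22 bases before the start. PU.1 is a transcription factor of myeloid cells and B cells.
Bcl2a1d, chr9:88731851-88732100, minus strand: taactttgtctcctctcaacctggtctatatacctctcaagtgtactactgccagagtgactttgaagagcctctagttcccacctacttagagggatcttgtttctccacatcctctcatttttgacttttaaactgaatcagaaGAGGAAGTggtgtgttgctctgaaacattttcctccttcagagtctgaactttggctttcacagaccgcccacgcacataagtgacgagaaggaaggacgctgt
Bcl2a1a, chr9:88956670-88956919, plus strand: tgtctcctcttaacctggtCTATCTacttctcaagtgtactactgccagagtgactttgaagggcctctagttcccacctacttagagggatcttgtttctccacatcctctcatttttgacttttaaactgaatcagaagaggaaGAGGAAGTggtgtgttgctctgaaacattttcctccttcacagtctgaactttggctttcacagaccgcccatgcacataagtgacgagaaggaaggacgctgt
Bcl2a1b, chr9:89199023-89199272, plus strand: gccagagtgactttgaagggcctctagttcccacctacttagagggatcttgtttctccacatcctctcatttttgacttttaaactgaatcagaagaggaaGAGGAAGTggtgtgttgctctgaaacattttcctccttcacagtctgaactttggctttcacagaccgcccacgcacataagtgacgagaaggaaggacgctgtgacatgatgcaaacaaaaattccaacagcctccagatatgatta

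Most myeloid markers also had lower fitted levels with the KO niche in treated hosts, and none passed the adjusted test. The summed level of 12 neutrophil markers was 20301, 7109 and 8129 CPM in KO treated libraries 257, 263 and 276, and 17736, 27111 and 131132 CPM in WT treated libraries 252, 262 and 266. Ngp, S100a8 and S100a9 were the largest parts of each of these sums. Of the 12, 8 had a negative log2 fold change, against 46.1% of all genes, and 4 a positive one. Mmp8, Mmp9, Cxcr2 and Retnlg had higher means in KO treated libraries. Mmp9, for example, was at 24.7, 119 and 94.0 CPM in KO and 14.5, 15.2 and 30.3 CPM in WT treated libraries, which overlap. The 8 monocyte and macrophage markers summed to 2517, 684 and 2378 CPM in KO and 3797, 3483 and 4576 CPM in WT treated libraries, without overlap. Ly6c2 was the largest part of each of these sums, at 2233, 332 and 1315 CPM in KO and 3207, 3063 and 4207 CPM in WT. Csf1r overlapped, at 20.9, 50.4 and 160 CPM in KO and 36.8, 39.7 and 15.4 CPM in WT, and so did F13a1. Of the 8, 5 had a negative log2 fold change and 3 a positive one. No marker of these 2 lists was at 0 in any library. WT treated 252, which had the highest Bcl2a1d, had the lowest neutrophil sum of its group. The genes closest to Bcl2a1d over the 11 libraries were Phf11b, Id2, an inhibitor of basic helix-loop-helix factors, and H2-Ab1, an MHC class II chain of antigen-presenting cells (root mean square differences of 0.33, 0.35 and 0.37). What part other cells had in the Bcl2a1d difference was not tested.

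Mcl1 and Bcl2 did not separate the groups. Mcl1 was at 101, 198 and 173 CPM in KO treated libraries 257, 263 and 276, and at 169, 112 and 109 CPM in WT treated libraries 252, 262 and 266. The log2 fold change was 0.28 ± 0.39 (adjusted p = 0.876). Bcl2, whose protein is the target of the drug venetoclax, was at 61.5, 86.3 and 58.1 CPM in KO and at 95.7, 85.8 and 59.2 CPM in WT treated libraries (log2 fold change -0.23 ± 0.37, adjusted p = 0.900). The log2 fold change of KO over WT in vehicle hosts was -0.07 ± 0.44 for Mcl1 and -0.37 ± 0.42 for Bcl2 (adjusted p = 1 and 0.930). These values do not show the groups to be alike, since the standard errors are as large as the differences. The profile closest to Mcl1 was that of Ptprc, the pan-leukocyte surface phosphatase CD45 (root mean square difference 0.28), and the closest to Bcl2 was that of Ccn3, a secreted matricellular protein (0.39).

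The make-up of the survival transcripts was compared within each library. Ratios within a library do not depend on how libraries are scaled, but they keep any trend of that library with gene length. They are given per kilobase of exon with no test. Bcl2l1 was 11.8%, 14.4% and 35.7% of the summed level of the 5 survival genes in KO treated libraries 257, 263 and 276, against 1.85%, 4.92% and 6.47% in WT treated libraries 252, 262 and 266. In vehicle hosts it was 11.1% and 13.9% in KO libraries 249 and 275, against 5.25%, 5.97% and 3.89% in WT libraries 240, 253 and 265. All 5 KO libraries were above all 6 WT libraries in this share. The ratio of Bcl2l1 to Mcl1 was 0.179 to 0.662 in KO and 0.0601 to 0.128 in WT libraries, without overlap. The ratio of Bcl2l1 to Bcl2 overlapped, at 0.535 to 5.27 in KO and 0.221 to 0.628 in WT libraries. Bcl2a1d took 17.0%, 11.2% and 3.25% in KO treated and 59.2%, 31.5% and 27.6% in WT treated libraries. Its share was 5.29% and 8.12% in KO vehicle libraries, against 20.6%, 15.0% and 13.8% in WT vehicle libraries. Of these 5 genes taken singly, Mcl1 was the largest part in 10 of 11 libraries, at 48.3% to 70.5%. It was at 28.5% in WT treated 252, where Bcl2a1d exceeded it. Bcl2a1a, the A1 copy outside the member list, is not in these sums, so the part of the A1 copies together is understated. On the same scale Bcl2a1a was at 120, 17.5 and 25.3 in WT treated libraries 252, 262 and 266. Mcl1 was at 49.4, 32.9 and 31.8 there. In KO treated libraries 257, 263 and 276 Bcl2a1a was at 9.48, 10.9 and 3.93.

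**Figure D3:**
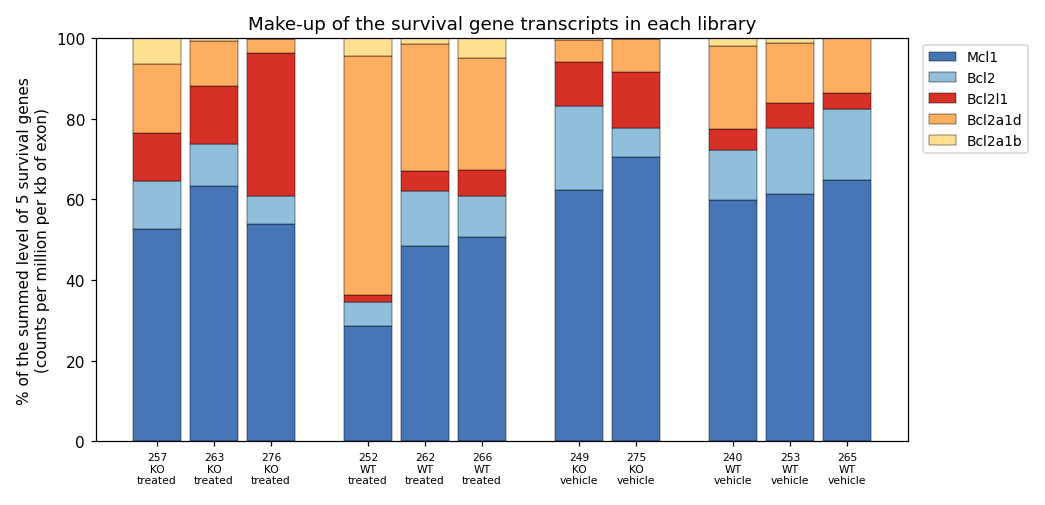
Stacked bars give each library's percentages of the summed level of the 5 survival members, in CPM per kilobase of exon. Bcl2a1a is not included. KO stands left of WT, first in treated and then in vehicle hosts. The Bcl2l1 segment is 11.1% to 35.7% in the 5 KO libraries and 1.85% to 6.47% in the 6 WT libraries.

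Of the effectors, Bax showed a split within the KO treated group. It was at 94.0 CPM in library 257, 25.3 CPM in 263 and 21.3 CPM in 276, against 88.1, 60.0 and 82.2 CPM in WT treated libraries 252, 262 and 266. Libraries 263 and 276 lay below every WT treated library and 257 above all 3. The log2 fold change was -0.71 ± 0.50 (adjusted p = 0.666) with all libraries, and -1.72 ± 0.31 without 257 (edgeR adjusted p = 0.0114). It was -0.37 without 263 and -0.35 without 276 (adjusted p = 1 for both). Limma voom with quality weights, which weights each library by its fit, gave -1.42 ± 0.27 (adjusted p = 0.00295). With each library's trend with gene length removed, the value was -0.43 (adjusted p = 0.989). The genes closest to Bax were Ndufa8, a subunit of respiratory complex I, Snrpc, of the spliceosome, and Cenpx, of the centromere, at root mean square differences of 0.13, 0.16 and 0.18.

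Bak1, the other effector, was at 19.2, 6.94 and 4.33 CPM in KO treated libraries 257, 263 and 276 and at 11.4, 6.02 and 13.4 CPM in WT treated libraries. Library 257 was again the highest of its group, and the groups overlap (log2 fold change -0.02 ± 0.83, adjusted p = 0.996). Part of the Bak1 transcript sequence is shared with Ggnbp1, so its level is uncertain to that extent. The ratio of Bax to Bak1 per kilobase was 7.49, 5.56 and 7.52 in KO treated libraries 257, 263 and 276 and 11.8, 15.2 and 9.39 in WT treated libraries 252, 262 and 266, without overlap. In vehicle libraries it was 14.6 and 12.7 with the KO niche and 3.18 to 33.1 with the WT niche.

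None of the 3 BH3-only genes passed the test between the treated niches. Bcl2l11 was at 14.9, 14.2 and 13.1 CPM in KO treated libraries 257, 263 and 276 and at 12.2, 11.8 and 10.2 CPM in WT treated libraries 252, 262 and 266. The groups did not overlap, with a gap of less than 1 CPM, but the log2 fold change of 0.30 ± 0.87 did not pass (adjusted p = 0.952), and it was -0.16 with the length trend removed. Bid, which links death receptors to mitochondria, was at 60.6, 75.1 and 112 CPM in the KO group and at 73.5, 105 and 102 CPM in the WT group (log2 fold change -0.17 ± 0.33, adjusted p = 0.913). Bbc3, a p53 target, was at 7.85, 6.15 and 4.03 CPM in KO and at 9.58, 4.76 and 7.79 CPM in WT treated libraries (-0.30 ± 0.74, adjusted p = 0.941). In vehicle hosts Bbc3 was at 3.76 and 3.64 CPM in KO and at 3.81, 18.0 and 6.15 CPM in WT libraries, a separation of less than 0.1 CPM. WT vehicle 253 held the highest value of Bbc3 and also of Bcl2l11, which was at 35.0 CPM there.

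The counts of members are set beside the same counts over all genes. Between the treated niches edgeR called 0 of the 10 members and 0% of 16639 genes at an adjusted p under 0.05. At an unadjusted p under 0.05 there were 2 of 10 members, Bcl2l1 and Bcl2a1d, and 1769 genes, or 10.6%. DESeq2 called 2 members (Bcl2l1 and Bcl2a1d) and 249 genes (1.5%), and limma voom 2 members (Bcl2l1 and Bax) and 4375 genes (26.3%). DESeq2 gave no adjusted p for Bak1, Bbc3 and Bcl2a1b in this comparison. Its shares here and below are of all 16639 genes, whether or not it gave them an adjusted p. The groups did not overlap with higher KO values for 2 of 10 members, Bcl2l1 and Bcl2l11, and for 9.71% of genes. They did not overlap with lower KO values for 1 member, Bcl2a1d, and for 9.56% of genes. Of the members 7 had a negative log2 fold change, against 46.1% of genes, with a median of -0.20 against 0.10 for all genes. In vehicle hosts edgeR called 0 members and 0% of genes, with 0 members and 6.78% of genes at an unadjusted p under 0.05. DESeq2 called 0 members and 224 genes (1.35%), and limma voom called 0 of either. The vehicle groups did not overlap for 1 of 10 members with higher KO values, Bcl2l1, against 13.2% of genes, and for 1 with lower KO values, Bbc3, against 7.47% of genes. The median of the members was -0.38, against 0 for all genes.

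**Figure D4:**
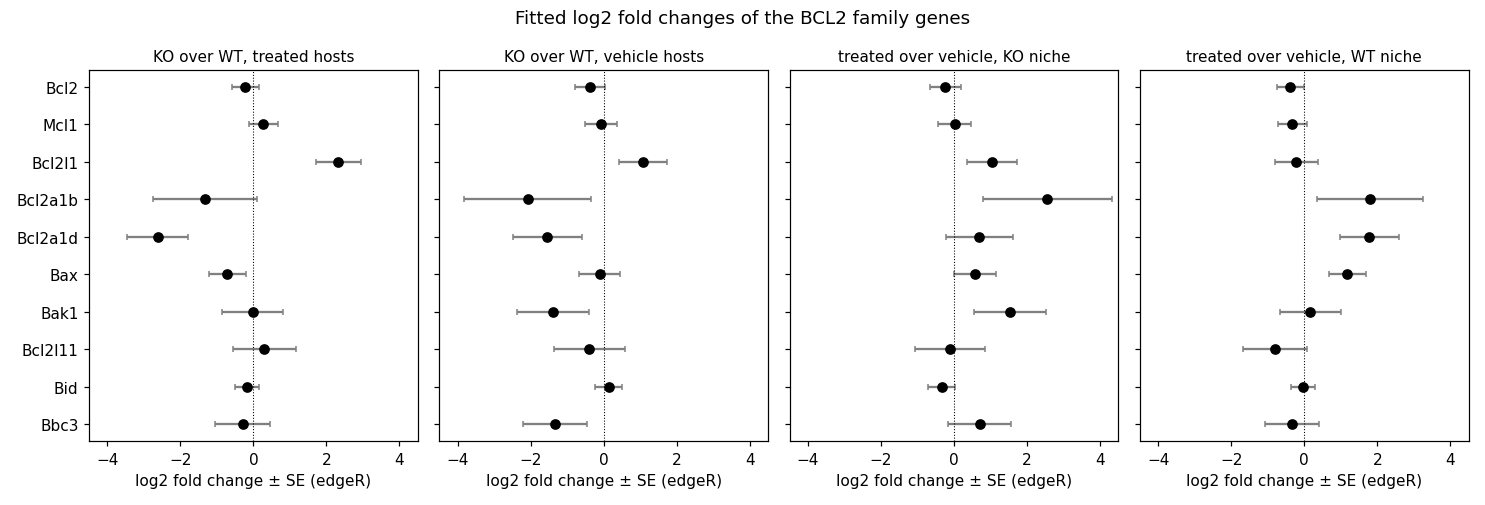
Log2 fold change with its standard error for each member in 4 comparisons, from 1 edgeR model. Bcl2l1 (2.33 ± 0.62) and Bcl2a1d (-2.63 ± 0.84) lie farthest from 0 relative to their errors between the treated niches, and Bax (1.18 ± 0.51) lies above 0 for treatment in the WT niche.

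Treatment with cytarabine, doxorubicin and quizartinib was compared with vehicle within each niche. Depth runs with treatment in these libraries, so depth and treatment cannot be told apart. In the WT niche Bax was at 88.1, 60.0 and 82.2 CPM in treated libraries 252, 262 and 266, against 27.6, 40.5 and 33.6 CPM in vehicle libraries 240, 253 and 265. Every treated library was above every vehicle library. The log2 fold change was 1.18 ± 0.51 (unadjusted p = 0.0398, edgeR adjusted p = 0.255), and it was 0.10 with the length trend removed (adjusted p = 0.928). With each library's percentage of reads outside genes in the model it was 1.93 ± 0.45 (adjusted p = 0.0240). Without KO treated 257, which enters only through the shared spread, the value was again 1.18 with an adjusted p of 0.0322. In the KO niche Bax was at 94.0, 25.3 and 21.3 CPM in treated libraries 257, 263 and 276, against 32.0 and 30.6 CPM in vehicle libraries 249 and 275. It differed by 0.58 ± 0.57 on the log2 scale (adjusted p = 1), and -0.43 without 257. Averaged over the niches it was 0.88 ± 0.38 (adjusted p = 0.299), or 0.096 with the length trend removed. The interaction was -0.60 ± 0.75 (adjusted p = 0.906), -1.61 without 257 and -0.016 with the length trend removed. The ratio of Bax to Mcl1 per kilobase was 1.13 to 1.64 in WT treated libraries, against 0.256 to 0.796 in WT vehicle libraries. It was 2.02, 0.277 and 0.267 in KO treated libraries 257, 263 and 276, against 0.566 and 0.352 in KO vehicle libraries. These ratios keep each library's trend with gene length, since Bax has 1576 bases of exon and Mcl1 has 3418.

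No survival gene passed the test for treatment. In the WT niche the treated over vehicle log2 fold change was -0.38 ± 0.38 for Bcl2, -0.33 ± 0.39 for Mcl1 and -0.22 ± 0.59 for Bcl2l1, with adjusted p-values of 0.621, 0.695 and 0.878. In the KO niche it was -0.24 ± 0.42, 0.02 ± 0.44 and 1.03 ± 0.68, each with an adjusted p of 1, and the Bcl2l1 value was 0.14 without KO treated 276. For Bcl2a1d the treated over vehicle value was 1.78 ± 0.82 in the WT niche (adjusted p = 0.275), 0.50 without WT treated 252, 2.42 without WT vehicle 240 and 0.67 with the length trend removed. It was 0.70 ± 0.91 in the KO niche (adjusted p = 1). Averaged over the niches it was 1.24 ± 0.62 (adjusted p = 0.343), or 0.60 without WT treated 252. The BH3-only genes Bbc3 and Bcl2l11 overlapped between treated and vehicle libraries of the WT niche. In the KO niche Bbc3 was at 4.03 to 7.85 CPM in treated and 3.64 to 3.76 CPM in vehicle libraries, and Bak1 was at 4.33 to 19.2 CPM in treated and 3.35 to 3.68 CPM in vehicle libraries, neither with overlap.

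Under treatment in the WT niche edgeR called 0 members and 0% of genes. At an unadjusted p under 0.05 there were 1 member, Bax, and 18.2% of genes. DESeq2 called 0 members and 6.65% of genes, and limma voom 0 of either. The groups did not overlap for 1 of 10 members with higher treated values, against 17.5% of genes, and for 0 with lower ones, against 10.1%. In the KO niche edgeR called 0 members and 0% of genes, with 0 members and 3.68% of genes at an unadjusted p under 0.05, while DESeq2 called 0 members and 0.138% of genes and limma voom 0 of either. The groups did not overlap for 3 of 10 members, Bcl2a1b, Bak1 and Bbc3, all higher, against 12.3% of genes, and for 0 with lower treated values, against 10.1%. Bcl2a1b was separated by little: KO treated 276 had 8 counts (0.296 CPM) and KO vehicle 249 had 6 counts (0.268 CPM). For the interaction edgeR called 0 members and 0% of genes, with 0 members and 6.31% of genes at an unadjusted p under 0.05. DESeq2 called 0 members and 0.349% of genes in it, and limma voom 0 of either. For the niche averaged over treatment edgeR called 0 members and 0% of genes, with 2 members (Bcl2l1 and Bcl2a1d) and 10.9% of genes at an unadjusted p under 0.05. DESeq2 called the same 2 members there and 2.20% of genes, and limma voom 0 members and 3.28% of genes. For treatment averaged over the niches edgeR called 0 members and 0% of genes, with 1 member (Bax) and 16% of genes at an unadjusted p under 0.05; DESeq2 called 0 members and 2.71% of genes and limma voom 0 members and 1 gene (0.00601%).

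**Figure D5:**
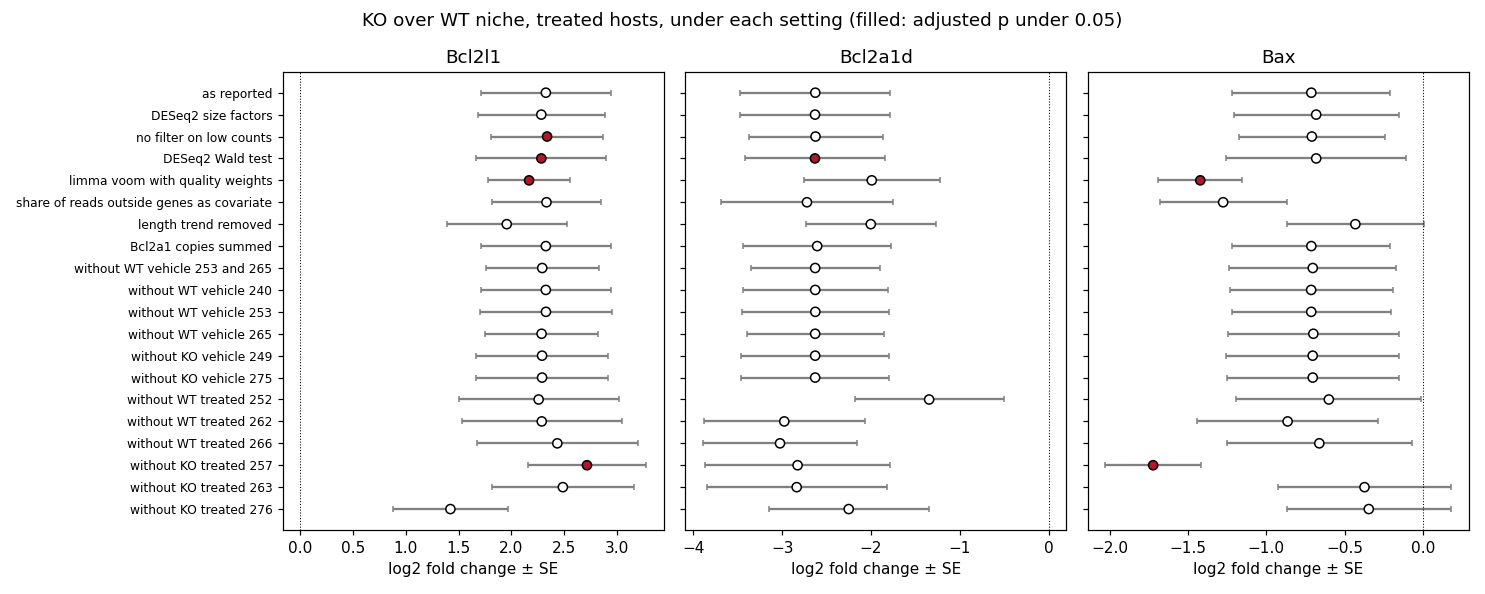
Log2 fold change of KO over WT niche in treated hosts, with its standard error, for Bcl2l1, Bcl2a1d and Bax under each setting; filled points have an adjusted p under 0.05. Bcl2l1 stays between 1.42 and 2.72, Bcl2a1d between -3.03 and -1.35, and Bax moves to -1.72 without KO treated 257.

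Other genes of the pathway came from lists of relatives and partners. Their counts at an unadjusted p under 0.05 are to be read against 10.6% of all genes between the treated niches and 18.2% for treatment in the WT niche. Removing the length trend took away most of the Bax difference with treatment in the WT niche, as given above. The list genes were not examined under that setting, so their values below keep any trend with gene length. Of 16 further BCL2 family genes, 12 passed the filter, and Bcl2l10 and Hrk had no count in any library. None of the 12 passed the adjusted test between the treated niches, and Bcl2l13 alone had an unadjusted p under 0.05. Bcl2l13, a mitochondrial relative that shares transcript sequence with Bid, averaged 48.5 ± 36.6 CPM in KO treated libraries and 16.8 ± 4.55 CPM in WT treated libraries (SD, n = 3 each, here and below) (log2 fold change 1.53 ± 0.63, adjusted p = 0.443). Bad, a BH3-only gene, averaged 51.6 ± 47.0 CPM with the KO and 82.8 ± 8.57 CPM with the WT niche. The BH3-only gene Pmaip1 (NOXA) averaged 19.2 ± 6.51 CPM and 21.8 ± 5.88 CPM for KO and WT treated libraries. Bnip3l, which directs mitochondrial removal in red-cell precursors, averaged 252 ± 137 CPM (KO) and 163 ± 30.6 CPM (WT).

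Downstream of the family, 0 of 14 apoptosome and caspase genes passed between the treated niches, and 4 had an unadjusted p under 0.05, with 2 higher and 2 lower. Cycs, the cytochrome c gene, had means of 190 ± 117 CPM in KO treated hosts and 404 ± 50.1 CPM in WT treated hosts, without overlap. Its log2 fold change was -1.09 ± 0.38 (adjusted p = 0.432). Treatment in the WT niche gave Cycs a log2 fold change of 1.85 ± 0.39 (adjusted p = 0.172), without overlap. Of 8 inhibitors of apoptosis 0 passed in any of the 7 contrasts. Birc5 (survivin), which also acts in mitosis, was at 325 ± 61.0 CPM in WT treated and 147 ± 30.1 CPM in WT vehicle libraries (1.15 ± 0.36, adjusted p = 0.177).

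Among 11 mitochondrial membrane partners, 0 passed between the treated niches and 5 had an unadjusted p under 0.05, with 2 higher and 3 lower, against 10.6% of genes. Hk1, a hexokinase that docks on the outer mitochondrial membrane, was at 142 ± 73.1 CPM in KO and at 35.1 ± 2.33 CPM in WT treated libraries (2.02 ± 0.41, adjusted p = 0.379), without overlap. Slc25a5, an adenine nucleotide carrier, had means of 907 ± 196 CPM (KO) and 1633 ± 232 CPM (WT) (-0.85 ± 0.31, adjusted p = 0.434). Mtch2, a receptor for BID on mitochondria, was at 263 ± 45.9 CPM in WT treated and 92.7 ± 4.05 CPM in WT vehicle libraries (1.51 ± 0.28, adjusted p = 0.172).

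Of 14 tested regulators of the family's transcription, 0 passed between the treated niches and 2 had an unadjusted p under 0.05. Stat5b was at 77.5 ± 45.3 CPM in KO and at 25.9 ± 5.77 CPM in WT treated libraries (1.58 ± 0.44, adjusted p = 0.383). Gata1, the red-cell and platelet factor, averaged 38.5 ± 39.1 CPM (KO) and 4.47 ± 2.58 CPM (WT) (3.11 ± 1.24, adjusted p = 0.435). Neither gene overlapped between these groups. Under treatment in the WT niche, 7 of the 14 had an unadjusted p under 0.05, against 18.2% of genes, and 5 of those were lower, among them Stat5a and Stat5b at -2.06 ± 0.54 and -1.67 ± 0.44 (adjusted p = 0.172 and 0.173). Of 7 tested genes for MCL-1 protein turnover, all 7 had a positive log2 fold change between the treated niches, against 53.9% of genes, and 1 had an unadjusted p under 0.05. That was Usp9x, a deubiquitinase of MCL-1, with 58.5 ± 38.0 CPM in KO treated hosts and with 16.3 ± 4.40 CPM in WT treated libraries (1.84 ± 0.56, adjusted p = 0.405). Its groups overlapped, with a lowest KO value of 17.3 CPM and a highest WT value of 20.1 CPM. Turnover covers both removal and protection of MCL-1, so the shared sign of the 7 genes gives no direction for the protein.

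Of 15 p53 targets linked to apoptosis, 0 passed in any contrast. Between the treated niches 2 had an unadjusted p under 0.05: Pidd1, at 16.2 ± 8.27 CPM in KO and at 4.05 ± 2.59 CPM in WT treated libraries, and Trp53inp1, with 18.4 ± 11.1 CPM (KO) and 6.56 ± 0.592 CPM (WT). With treatment in the WT niche 6 had one, 3 higher and 3 lower, against 18.2% of genes. Siva1, a death-receptor partner, was at 306 ± 29.1 CPM in WT treated and 97.4 ± 13.2 CPM in WT vehicle libraries (1.65 ± 0.40, adjusted p = 0.172). Phlda3, a repressor of AKT, averaged 1.92 ± 0.920 CPM (WT treated) and 0.0215 ± 0.0373 CPM (WT vehicle), with no count in 2 of the 3 vehicle libraries.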

How the data were processed

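Values are raw read counts per Ensembl gene, deposited by the authors without normalization. Per the submitters' processing notes, the build was GRCm39 and the tools included STAR 2.7.9a and HTSeq (as 0.6.7), besides bcl2fastq, DESeq2 and Trim Galore 0.6.7, with no role given; the annotation, strand setting and filters are not given in the sources used here. Per the labels' protocols, cDNA came from a SMARTer Ultra Low Input kit, and Nextera XT was used for the libraries; these kits keep no strand. The 5 HTSeq summary lines were left out of library sizes; the ambiguous line held 2.34% to 6.31% of reads.

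Symbols, exon lengths and transcripts came from GENCODE M21, and promoters from RefSeq, both on GRCm38. They matched 52093 (symbols) and 52147 (lengths) of 53700 genes by stable identifier. Exon length is the union of all exons of a gene. In R 4.3.3 with edgeR 4.0.16, filterByExpr kept 16639 genes, TMM scaled the libraries, and 1 quasi-likelihood model (robust) with the 4 groups gave 7 contrasts, adjusted by Benjamini-Hochberg over all genes, with a threshold of 0.05. The biological coefficient of variation was 0.783. SE is the log2 fold change over the square root of F. Depth was 8129032 to 31061919 gene counts, so 1 count was worth at most about 0.123 CPM; counts carry no molecular identifiers, so floors cover counting error only.

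Alternatives were DESeq2 size factors, no filter, the DESeq2 1.42.0 Wald test, limma 3.58.1 voom with quality weights, the percentage of reads outside genes as covariate, a lowess (span 0.3) length offset, Bcl2a1 copies summed, libraries 253 and 265 left out, and each library left out. The scripts were checked on simulated counts. All members are named; of each pathway list, up to 2 genes with the smallest p per contrast were eligible, and for each member the 3 closest profiles among 12927 named genes. Other relatives were named after their values were seen. Fold changes are given for all 10 members between the treated niches and mainly for Bcl2, Mcl1, Bcl2l1, Bcl2a1d and Bax elsewhere. The members and lists were chosen with earlier results of these data known. Values of some list genes are not reported here.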

Additional observations from a re-analysis of the deposited data

How the results depend on the processing

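Over 32 reported fold changes, 236 of 256 values under the settings that kept all libraries or left out WT vehicle 253 and 265 kept their direction and their side of the threshold, 9 passed it newly and 11 changed sign. Of 352 values with 1 library left out, the counts were 330, 4 and 18. Many of the 352 leave out a library that is in neither group of the contrast. Such a fold change can hardly move: Bcl2l1 between the treated niches stayed at 2.33 without WT vehicle 240. The 330 therefore overstates how stable the fold changes are. Among the 256 values, those to which DESeq2 gave no adjusted p were counted as keeping their side. With the Bcl2a1 copies summed, Bcl2a1b and Bcl2a1d are the same value counted for each. The cause of the changes of sign or side was not tested. Members called are given with the share of all genes called. Between the treated niches 1 member was called without the filter (0.154% of genes), 2 by DESeq2 (1.5%) and 2 by limma voom (26.3%). With 1 library left out 0 to 2 were called there, against 0 as reported. For treatment in the WT niche 1 member was called with the covariate (12.6%) and 0 to 1 with 1 library left out. For the niche averaged over treatment it was 1 without the filter (0.296%), 2 by DESeq2 (2.2%) and 0 to 2 with 1 library left out. The values of 2 and 1 with 1 library left out came without KO treated 257. With 257 left out, 9.26% of genes were called between the treated niches, 6.19% for treatment in the WT niche and 6.12% for the mean niche effect.

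Signs changed between the treated niches for Bak1 (0.0042 with DESeq2 size factors, 0.0038 by DESeq2 and 0.12 with the length trend removed), and, with that trend removed, for Bbc3 (0.0016) and Bcl2l11 (-0.16). In vehicle hosts Bax changed to 0.011 by limma voom, 0.48 with the covariate and 0.30 without WT vehicle 253 and 265. For treatment in the KO niche, Bcl2 changed to 0.058 and Bax to -0.26 by limma voom, and Mcl1 to -0.024 without 253 and 265. With 1 library left out, values spanned -0.87 to 0.35 for Bak1 and -0.50 to 0.0031 for Bid between the treated niches. They spanned -1.02 to 0.098 for Bcl2, -0.38 to 0.28 for Mcl1 and -0.24 to 0.033 for Bax between the vehicle niches. For treatment in the WT niche they spanned -0.59 to 0.018 for Mcl1 and -0.57 to 0.16 for Bcl2l1. In the KO niche they spanned -0.73 to 0.39 for Bcl2, -0.29 to 0.31 for Mcl1 and -0.43 to 0.95 for Bax, and -1.73 to 0.20 for the Bcl2a1d interaction.

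Over all genes, where 0 were called as reported, no filter gave 43, 11, 215, 83 and 7 calls for the niche in treated hosts, the niche in vehicle hosts, treatment in the WT niche, the mean niche and the mean treatment effect. The covariate gave 2100 for treatment in the WT niche and 1517 for its mean. Without KO treated 257 there were 1513 between the treated niches, 1012 for treatment in the WT niche and 1000 for the mean niche effect. Without WT vehicle 240 there were 85 between the vehicle niches, 190 for treatment in the WT niche, 108 for the mean niche effect and 1 for the interaction, and without KO vehicle 249 there were 23 for the mean niche effect. Leaving out KO vehicle 249 or 275 leaves 1 library, which is assumed to vary like the other groups. Low counts limit Bcl2a1b and, in WT vehicle 265, Bcl2l11. No paired analysis was possible because the library numbers in the titles are not shared between groups.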
